A study of Mus musculus with 3 samples.

Results

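The S100 protein genes were followed across 3 single-cell libraries of mouse kidney. The 9 genes, S100a1, S100a4, S100a6, S100a8, S100a9, S100a10, S100a11, S100a13 and S100g, are 9 of the 22535 genes listed in the count tables. They were selected on values measured in these same libraries, above all the higher level of S100a6 in many cell types after injury, so their levels and ratios are a description and carry no test. A further 7 S100 genes were found in the tables (S100a2, S100a3, S100a7a, S100a14, S100a16, S100b and S100z).

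All libraries came from the kidney cortex of WT1CreERT2; Rosa26-tdTfl/+ mice, in which tamoxifen turns on the red protein tdTomato (tdT) in cells that express Wt1, and in their descendants. Both the control and the injured mice carried these alleles and received tamoxifen. Severe IRI stands for ischemia-reperfusion injury of both kidneys. The Sham library holds sorted tdT+ cells mixed with tdT- cells after sham surgery, IRI24h-TDN holds a mixture of the same kind taken 24 h after severe IRI, and sorted tdT+ cells alone, taken at the same time after IRI, make up IRI24h-TD. Each group is 1 library, so injury and library cannot be told apart and no replicate check exists. The intervals in brackets are 95% and cover counting error only.

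S100 proteins are small calcium-binding proteins with paired EF hands. Most work as dimers inside the cell, where calcium lets them grip annexins, cytoskeletal proteins or enzymes, and a few are also secreted and signal through receptors such as RAGE and TLR4. In the kidney the family is best known for calbindin-D9k, the calcium carrier of the distal nephron, for the neutrophil proteins calgranulin A and B, and for S100a4 and S100a6 as markers of fibroblasts and injured epithelium.

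A total of 8047, 9024 and 9689 barcodes were kept in Sham, IRI24h-TDN and IRI24h-TD, with median depths of 7746, 9151 and 9529 unique molecular identifiers (UMIs). Pairs of libraries shared 82 to 96 of the kept barcode sequences, 1.02% to 1.14% of the smaller library. Marker genes, none of them an S100 gene, gave 13 named cell classes, and 11 had at least 30 cells in both mixtures. The connecting tubule-like class was named from a joint list of connecting tubule and principal cell markers. Its leading genes included Aqp2, Hsd11b2, Fxyd4 and Aqp3, and the mix of these cell types in each library was not tested. The mesangial-like class was named from mesangial and mural markers. Rgs5, Acta2, Ren1 and Myh11 were among its leading genes, so the name covers both. IRI24h-TD was 91.2% podocyte-like and 5.60% PEC-like (PEC, parietal epithelial cell), the cell types in which the study saw tdT after tamoxifen. The fibroblast-like class rests on only 3 detected markers. A level is the sum of a gene's UMIs over the cells of a class, scaled to all UMIs of those cells (CPM). Between the mixtures the median log2 ratio of all genes lay between -0.24 and 0.15 in the 11 classes.

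Of the 9 genes, 8 lie on mouse chromosome 3 and S100g lies on the X chromosome. S100a4 (chr3:90603771-90606045) and S100a6 (chr3:90612882-90624181), both protein-coding on the plus strand, lie close together with S100a5 (chr3:90608523-90611780) between them. The same block also holds S100a1, S100a8, S100a9 and S100a13, while S100a11 (chr3:93520488-93526287) and S100a10 (chr3:93555080-93564643) lie farther along the chromosome. The 250 bases before the RefSeq start (GRCm38.p6, the build named mm10 in the labels) are shown for 4 genes. These are S100a6, the member with the highest ratio in podocytes and proximal tubule, the nearby S100a4, the annexin binder S100a11 and the distal calcium gene S100g. S100a6 is at chr3:90612644-90612893 (+), S100a4 at chr3:90603520-90603769 (+), S100a11 at chr3:93520246-93520495 (+) and S100g at chrX:162964600-162964849 (-), each written 5′ to 3′ along its own strand. Capitals mark matches, on either strand, to TATAAA (a core promoter element), TGANTCA (AP-1), TGACNNNGC (antioxidant response element core), TTCNNNGAA (STAT) or CACGTG (E-box).
S100a6: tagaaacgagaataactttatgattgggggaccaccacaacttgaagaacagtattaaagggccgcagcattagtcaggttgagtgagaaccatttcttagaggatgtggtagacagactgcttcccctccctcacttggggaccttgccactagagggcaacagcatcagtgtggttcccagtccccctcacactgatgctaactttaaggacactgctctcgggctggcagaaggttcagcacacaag
S100a4: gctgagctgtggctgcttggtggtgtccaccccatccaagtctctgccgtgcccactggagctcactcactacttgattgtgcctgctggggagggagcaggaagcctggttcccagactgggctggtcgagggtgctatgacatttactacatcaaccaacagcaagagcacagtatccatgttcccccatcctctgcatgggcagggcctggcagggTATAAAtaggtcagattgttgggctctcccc
S100a11: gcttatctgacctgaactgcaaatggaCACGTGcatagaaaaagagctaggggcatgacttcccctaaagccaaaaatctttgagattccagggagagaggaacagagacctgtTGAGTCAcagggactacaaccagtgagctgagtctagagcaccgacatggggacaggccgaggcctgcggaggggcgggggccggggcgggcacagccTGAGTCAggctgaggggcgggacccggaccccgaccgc
S100g: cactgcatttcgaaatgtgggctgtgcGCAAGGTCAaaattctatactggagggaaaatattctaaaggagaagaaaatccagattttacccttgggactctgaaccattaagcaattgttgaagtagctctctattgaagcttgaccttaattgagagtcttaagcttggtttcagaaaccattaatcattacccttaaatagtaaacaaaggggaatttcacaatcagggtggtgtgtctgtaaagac
S100a6 held none of the 5 motifs. S100a11 held TGAGTCA at 136 to 130 and again at 38 to 32 bases before the start, and CACGTG at 223 to 218, S100a4 held TATAAA at 31 to 26, and S100g held GCAAGGTCA, the reverse-strand form of TGACNNNGC, at 223 to 215. No marked match overlapped another. Among 32851 windows of the same length, TATAAA was present in 12.4%, TGANTCA in 6.75%, TGACNNNGC in 10.2%, TTCNNNGAA in 7.02% and CACGTG in 6.02%. Windows were found for 8 of the 9 genes (not S100a10). S100a8 also held TATAAA, at 30 to 25, and S100a1, S100a9 and S100a13 held no match.

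**Figure D1:**
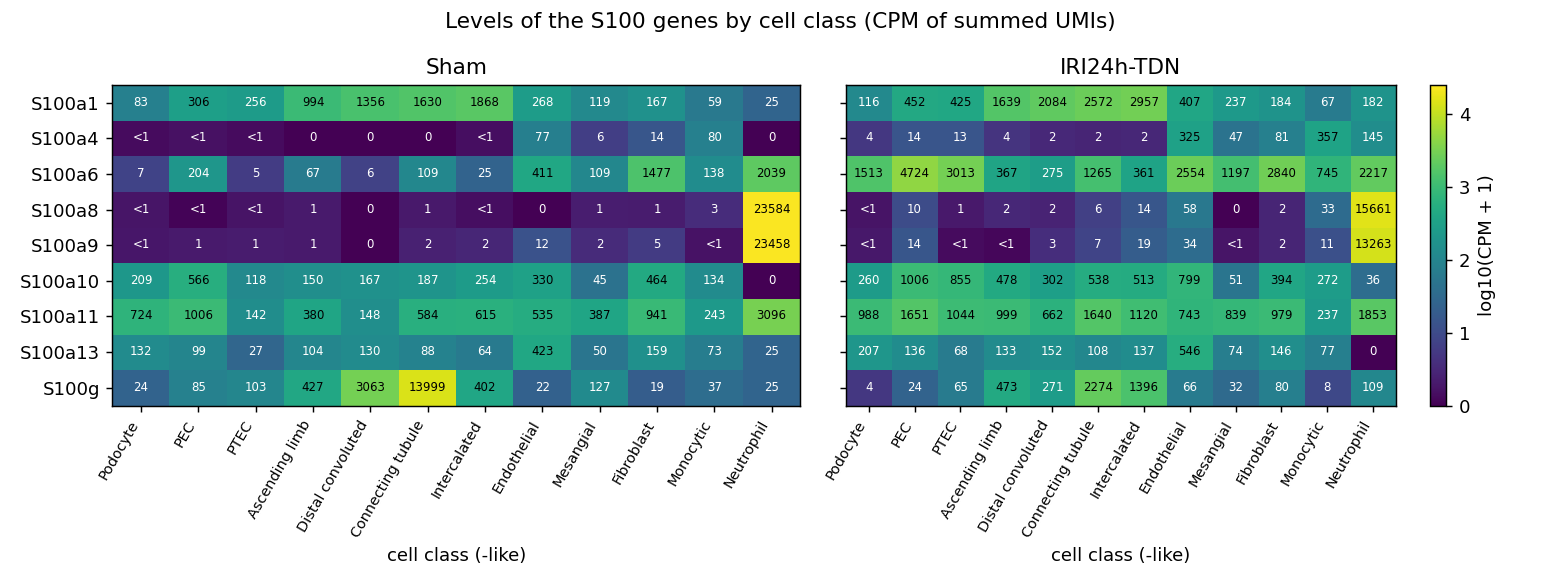
Level of each of the 9 S100 genes (rows) in 12 cell classes (columns) of Sham (left) and IRI24h-TDN (right). The number in each square is CPM of summed UMIs and the colour is log10(CPM + 1), and S100a8 and S100a9 stand out in neutrophil-like cells, S100g in connecting tubule-like cells of Sham, and S100a6 in most columns of IRI24h-TDN.

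S100a6 (calcyclin), a calcium sensor that binds annexins and the ubiquitin ligase adaptor CacyBP, was higher in IRI24h-TDN than in Sham in 11 of the 11 classes compared, and at least 2-fold higher in 10 of them. Over all kept cells its level was 68.7 CPM in Sham, 1440.5 CPM in IRI24h-TDN and 1774 CPM in IRI24h-TD, and 10.7%, 78.7% and 90.8% of cells held a UMI of it. The classes differed widely in how far apart the mixtures stood.

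In podocyte-like cells S100a6 was at 6.75 CPM (5.94 to 7.64) in 4397 Sham cells, 1513 CPM in 5241 IRI24h-TDN cells and 1553 CPM in 8837 IRI24h-TD cells. This is 224-fold higher in IRI24h-TDN than in Sham, a log2 ratio of 7.81 (7.63 to 7.99), the highest of 13922 genes in that class. The rank of S100a6 from the top was 3 of 12204 genes in proximal tubule-like, 45 of 13347 in PEC-like and 1144 of 9187 in fibroblast-like cells. A UMI was present in 3.41% of Sham and 90.8% of IRI24h-TDN podocyte-like cells, and in 1.47% and 76.8% after each cell was thinned to 2400 UMIs. Among the podocyte-like clusters the level ran from 1.60 to 23.3 CPM over 9 clusters of Sham and from 1075 to 2499 CPM over 8 clusters of IRI24h-TDN. The clusters are parts of 1 library each and not replicates.

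In PEC-like cells, the lining cells of Bowman's capsule, S100a6 was at 204 CPM in 934 Sham cells, 4724 CPM in 384 IRI24h-TDN cells and 4445 CPM in 543 IRI24h-TD cells. The log2 ratio between the mixtures was 4.53 (4.46 to 4.60), a 23.1-fold higher level. A UMI was present in 29.2%, 92.4% and 94.7% of these cells. How clusters were drawn moved these ratios, to 2.62 in PEC-like and 6.44 in podocyte-like cells without correction between libraries, and to 5.88 and 6.34 at a finer clustering.

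In proximal tubule-like (PTEC-like) cells S100a6 was at 5.02 CPM (44 UMIs in 1077 cells) in Sham, 3013 CPM (8851 UMIs in 162 cells) in IRI24h-TDN and 3783 CPM (112 cells) in IRI24h-TD. The log2 ratio between the mixtures was 9.23 (8.80 to 9.69), 600.3-fold, and the share of cells with a UMI was 2.60%, 74.7% and 78.6%. Havcr1, which encodes the tubular injury protein KIM-1, was at 5.36, 2774 and 1394 CPM in the same cells, so both injured libraries stood far above Sham for S100a6 and for this injury marker alike. The ratio was 8.48 without correction between libraries and 9.998 without likely doublets.

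The distal epithelia also held more S100a6 in IRI24h-TDN. Connecting tubule-like cells were at 109 and 1265 CPM in Sham and IRI24h-TDN (log2 3.54), intercalated-like cells at 24.5 and 361 CPM (log2 3.88) and ascending limb-like cells at 66.6 and 367 CPM (log2 2.46). Distal convoluted tubule-like cells were at 6.49 CPM, only 4 UMIs in 49 cells, and 275 CPM (log2 5.41, 4.05 to 7.28). The Sham values of these classes rest on few cells, since the richest cell held 45.9% of the S100a6 UMIs of ascending limb-like, 43.3% of connecting tubule-like and 51.0% of intercalated-like cells, and leaving out that cell in each library kept every one of these ratios above 2-fold. IRI24h-TD held 858 CPM in 33 ascending limb-like cells and too few cells of the other 3 classes to compare. The log2 ratio in connecting tubule-like cells was 5.50 at a finer clustering and 4.19 without likely doublets, that of intercalated-like cells was 2.85 at the finer clustering and 2.82 with a stricter cell filter, and that of ascending limb-like cells was 1.44 with the stricter filter.

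In Sham, endothelial-like and fibroblast-like cells stood above every epithelial class for S100a6, while mesangial-like and monocytic-like cells lay within the epithelial range. Endothelial-like cells were at 411 and 2554 CPM in Sham and IRI24h-TDN (log2 2.63), mesangial-like cells at 109 and 1197 CPM (log2 3.46) and monocytic-like cells at 138 and 745 CPM (log2 2.43). Fibroblast-like cells had the highest Sham level of the 11 compared classes, 1477 CPM, against 2840 CPM in IRI24h-TDN and 2685 CPM in IRI24h-TD, and their log2 ratio of 0.94 (0.83 to 1.05) was the lowest of the 11. It was 1.15 with TMM scaling and 1.18 with the median of ratios, which puts it past 2-fold. Without correction between libraries the fibroblast-like cluster held only 6 Sham cells and 1 IRI24h-TD cell, against 154 and 50 here. The class therefore dropped out, and S100a6 was at least 2-fold higher in 10 of the 10 classes left. The monocytic-like log2 ratio was 3.21 under the same alternative. In neutrophil-like cells, with 20 cells in Sham and 9 in IRI24h-TDN, the levels were 2039 (1619 to 2534) and 2217 CPM (1696 to 2847), whose intervals overlap.

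**Figure D2:**
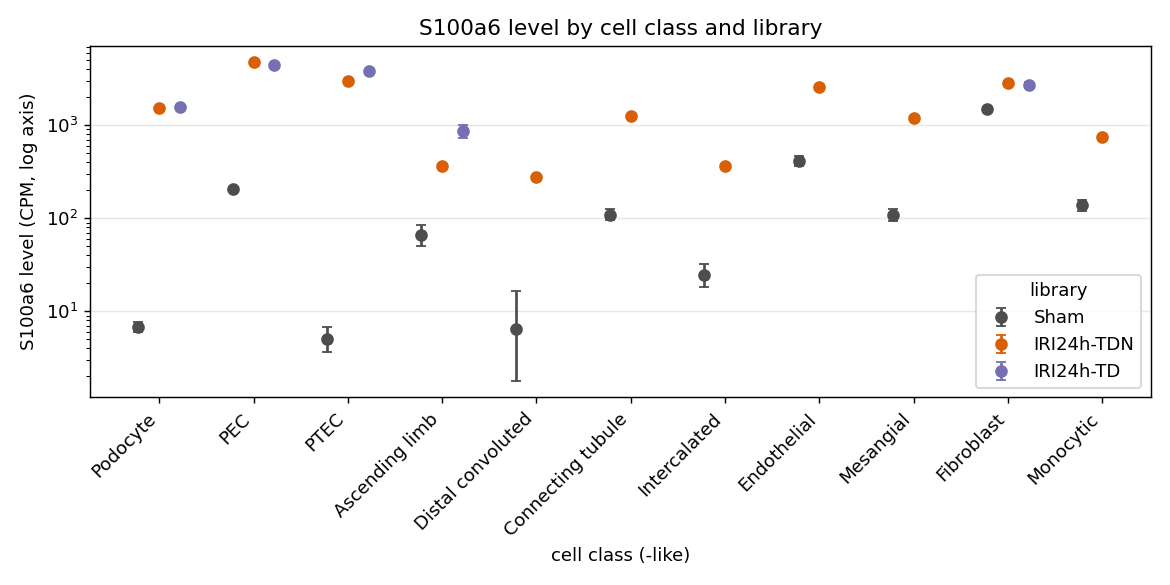
S100a6 level (CPM, log axis) in 11 cell classes of Sham, IRI24h-TDN and, where a class had at least 30 cells, IRI24h-TD, with bars for the 95% counting interval. The IRI24h-TDN point lies above the Sham point in every class, with the narrowest gap in fibroblast-like cells and the widest in PTEC-like and podocyte-like cells.

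Podocyte RNA carried into other classes was bounded from the podocyte markers, by taking a class's summed podocyte marker level as a share of that in podocyte-like cells. In IRI24h-TDN this RNA could account for at most 28.9% of the S100a6 level in ascending limb-like, 26.6% in intercalated-like, 15.8% in distal convoluted tubule-like and 13.1% in mesangial-like cells, and at most 8.60% in each other class. The barcodes left out for few genes or many mitochondrial UMIs held S100a6 at 6.71, 123 and 236 CPM in Sham, IRI24h-TDN and IRI24h-TD, below the 68.7, 1440.5 and 1774 CPM of the kept cells. The lowest S100a6 level of a named cluster of IRI24h-TDN was 57.6 CPM, in 246 cells of a monocytic-like cluster (cluster 22), where 18.3% of cells held a UMI. The podocyte bound above, as a level, reached 106 CPM in ascending limb-like, 156 CPM in mesangial-like and 220 CPM in endothelial-like cells, so it exceeded the level of that cluster in several classes, and the part of free RNA in the S100a6 levels was not tested further. Its median depth was 4749 UMIs over the libraries, against 9328 for podocyte-like cells of IRI24h-TDN.

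The 3 PEC-like clusters differed among themselves. Cluster 27, whose leading genes were cell cycle genes such as Top2a and Mki67 and of whose cells 13.3% were among the top 6% of doublet scores, held S100a6 at 89.4 CPM in 12 Sham cells, 8110 CPM in 45 IRI24h-TDN cells and 9648 CPM in 33 IRI24h-TD cells. Cluster 9 was at 94.8, 4606 and 4799 CPM and cluster 11 at 451, 3118 and 2939 CPM, so the cluster with the highest Sham level had the lowest level in both injured libraries.

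PEC-like and PTEC-like cells were also split by a UMI of another gene, as a description, since a UMI is found more often in deeper cells. In PEC-like cells of IRI24h-TDN S100a6 was at 6172 CPM in the 143 cells with Krt18, the keratin the study pairs with S100a6 for its transitional cells, and 3172 CPM in the 241 cells without (6916 and 3235 CPM after thinning). Cells with Havcr1 were at 8702 against 3490 CPM, and cells with Top2a or Mki67, genes of dividing cells, at 8690 against 3826 CPM. Cells with Wt1 were lower in level, 4287 CPM in 315 cells against 6988 CPM in 69 cells, and were still lower after thinning (3610 against 4636 CPM). The share of cells with an S100a6 UMI went the other way, 94.0% with Wt1 against 85.5% without, and 89% against 78.9% after thinning. In the 69 cells without Wt1, 16.6% of the S100a6 UMIs sat in 1 cell. In Sham the order for Krt18 was the other way round, with 50.4 CPM in PEC-like cells with it and 284 CPM in those without. The Krt18 split was in large part a split between clusters, since Krt18 was found in 41.0% and 62.6% of cluster 9 cells of Sham and IRI24h-TDN but in 0.557% and 2.84% of cluster 11 cells, and cluster 11 had the higher S100a6 level in Sham and the lower one in IRI24h-TDN.

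PTEC-like cells of IRI24h-TDN with Krt18 held S100a6 at 6278 CPM (35 cells), against 1795 CPM in 127 cells without, and in IRI24h-TD these values were 5482 and 1485 CPM. The split by Havcr1 gave 3237 CPM in 132 cells with it and 1298 CPM in 30 without (3420 and 1417 CPM after thinning). The split by Wt1, 3693 against 2762 CPM, turned around after thinning, to 2197 against 2905 CPM. S100a6 was thus higher in cells with Krt18 and in cells with Havcr1 in both classes of both injured libraries, and the order for Wt1 in PTEC-like cells depended on depth.

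**Figure D3:**
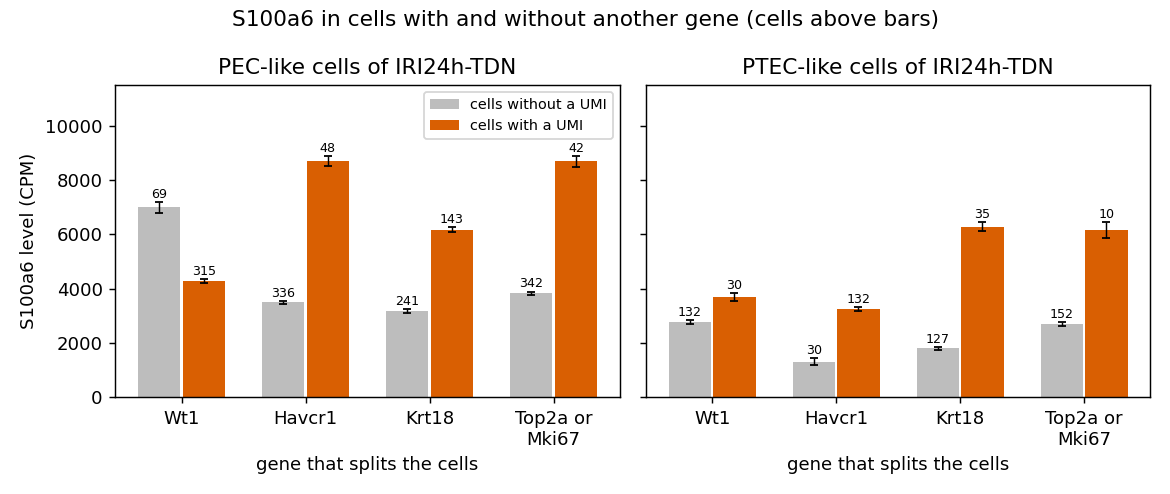
S100a6 level (CPM, with 95% counting intervals) in PEC-like (left) and PTEC-like (right) cells of IRI24h-TDN with a UMI of Wt1, Havcr1, Krt18, or either Top2a or Mki67 (orange) and without (grey), with the number of cells above each bar. Cells with Havcr1, Krt18 or a cell cycle gene stand higher in both classes, and cells with Wt1 stand lower in PEC-like cells only.

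S100a6 and Gapdh, the glycolytic enzyme gene often used as a reference, differed between the mixtures in opposite directions. Gapdh was at 448 CPM in Sham (29147 UMIs), 5.13 CPM in IRI24h-TDN (453 UMIs) and 3.0 CPM in IRI24h-TD (279 UMIs), and its log2 ratio between the mixtures lay between -7.41 and -5.04 in the 11 classes (median -6.51), a range of 2.37. The S100a6 log2 ratio ran from 0.94 to 9.23 (median 3.54), a range of 8.29 that was wider than that of 99.8% of the genes measured in at least 6 classes, while 66.5% of genes had a narrower range than Gapdh. Within a class, S100a6 exceeded Gapdh by 7.67 to 15.3 on the log2 scale (median 10.9), a difference that no rescaling of a library can alter. Much of this gap is the lower Gapdh itself. With near copies of Gapdh added in, its level over all kept cells was 543 CPM in Sham and 62.2 CPM in IRI24h-TDN. Over all kept cells the gap is thus smaller when those copies are counted.

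Of 10992 genes measured in at least 6 classes, 152 (1.38%) were at least 2-fold different in 1 direction in every class measured, 54 higher and 98 lower in IRI24h-TDN. Gapdh was one of the 98, of which 32 encode ribosomal proteins, and Ppia, another reference gene, was lower in 11 of 11 classes (log2 -4.11 to -1.34). S100a6 was not on this list because of fibroblast-like cells, and entered it when only classes with at least 100 cells in both mixtures were used. The 5 largest higher shifts by the smallest class value were Gm10073 (3.61), Gm9843 (3.54), Lcn2 (3.31), Gadl1 (3.26) and Rpl9-ps6 (3.22), and the 5 largest lower shifts were Rps29 (-7.13), Rps27 (-6.19), Rpl28 (-5.99), Rps13 (-5.80) and Rpl17 (-5.42). Among the 54, 27 carried a Gm, -ps or -rs name, as model genes and pseudogenes do.

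Near copies set Gapdh and S100a6 apart. In the reference transcripts 164 other genes shared at least 100 bases with Gapdh at 90% identity or more, and the 7 of them in the tables brought Gapdh to 543, 62.2 and 68.5 CPM in the 3 libraries when added in. No other gene matched S100a6, nor S100a1, S100a8, S100a9, S100a10, S100a13 or S100g, at that level. S100a4 had 1 such match and S100a11 had 5, none of which is in the tables, so how reads shared with them were assigned was not tested. Some genes shifted alike in opposite directions also matched each other. Gm9843 (higher) matched Fau (lower) at 100% identity, and Rpl9-ps6 (higher) matched Rpl9 (lower) at 99.9%. Rps27rt (higher) matched Rps27 (lower) at 100%. How reads were divided within these pairs was not tested.

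**Figure D4:**
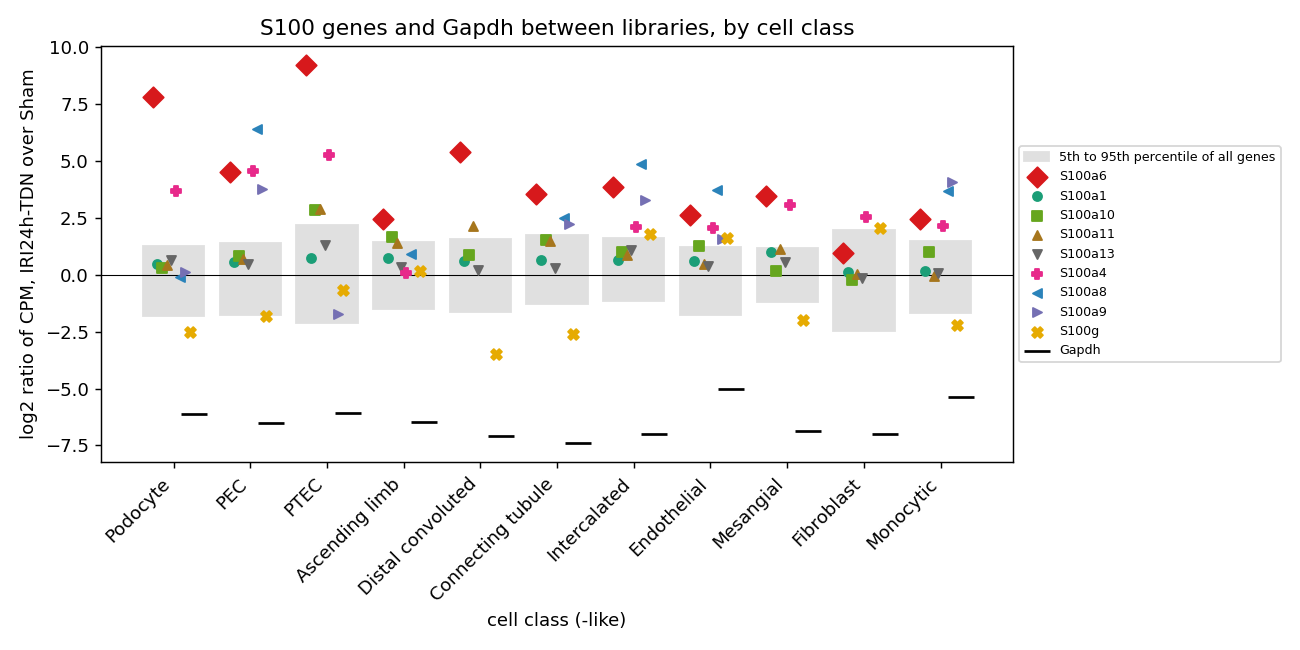
Log2 ratio of CPM, IRI24h-TDN over Sham, for the 9 S100 genes (symbols) and Gapdh (bars) in 11 cell classes, with the grey band for the 5th to 95th percentile of all genes tested in the class. Gapdh lies between -7.41 and -5.04 throughout, whereas S100a6 runs from 0.94 in fibroblast-like to 9.23 in PTEC-like cells.

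In each class S100a6 exceeded the median log2 ratio of the other S100 genes, by 0.85 to 7.91 (median 2.43). At least 1 other member lay above S100a6 in 5 of the 11 classes. The highest was S100a8 in PEC-like (6.39), intercalated-like (4.89) and endothelial-like cells (at least 3.72), S100a4 in fibroblast-like cells (2.53) and S100a9 in monocytic-like cells (4.08), and in mesangial-like cells S100a4 (3.07) came close to S100a6 (3.46). Genes are counted here where a class held at least 10 UMIs in 1 of the mixtures, and a count of members is set beside the share of all genes at least 2-fold higher or lower in the same class. In podocyte-like cells 2 of 9 members were higher and 1 lower (6.81% and 10.5% of all genes), in PEC-like cells 4 and 1 of 9 (7.46% and 12%), and in PTEC-like cells 5 and 1 of 8 (16.7% and 15.7%). In ascending limb-like cells 3 and 0 of 8 were higher and lower (10% and 11.4%), in distal convoluted tubule-like cells 2 and 1 of 6 (10.7% and 12.7%), and in connecting tubule-like cells 5 and 1 of 8 (11.4% and 7.74%). The share of members higher was above that of all genes in each of these classes, but the members were picked with these ratios known, so nothing is read from it.

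In the remaining classes, 7 of 9 members were higher and 0 lower in intercalated-like (11.1% and 6.73% of all genes), 6 and 0 of 9 in endothelial-like (7.56% and 13.1%), and 3 and 1 of 7 in mesangial-like cells (6.65% and 6.38%). In fibroblast-like cells 2 of 7 were higher and 0 lower (11.6% and 23.4%), and in monocytic-like cells 5 and 1 of 9 (12.2% and 10.6%). Several of these calls rest on a few UMIs of S100a4, S100a8 or S100a9, or on 1 cell for S100g (90.5% of its UMIs in fibroblast-like and 45.2% in endothelial-like cells of IRI24h-TDN).

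S100a10 (p11), which lacks calcium binding and pairs with annexin A2 at the membrane, was at least 2-fold higher in 6 of 11 classes. In PTEC-like cells it was at 118, 855 and 868 CPM in Sham, IRI24h-TDN and IRI24h-TD (log2 2.86 between the mixtures, and 1.77 without correction between libraries). It was at 187 and 538 CPM in connecting tubule-like, 150 and 478 CPM in ascending limb-like, 329.6 and 799 CPM in endothelial-like, 254 and 513 CPM in intercalated-like and 134 and 272 CPM in monocytic-like cells of Sham and IRI24h-TDN. In podocyte-like cells the 3 libraries lay close together, at 209, 260.0 and 236 CPM, and fibroblast-like cells were at 464, 394 and 700 CPM. Their log2 ratio over Sham was -0.24 (-0.49 to 0.01) in IRI24h-TDN, an interval that includes no difference, and 0.59 (0.34 to 0.85) in IRI24h-TD. The IRI24h-TD value rests on 50 cells, and without correction between libraries the fibroblast-like cluster held 1 cell of IRI24h-TD.

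S100a11 (calgizzarin), which binds annexin A1 and whose upstream window holds the pair of TGAGTCA matches, was at least 2-fold higher in 5 of 11 classes. In PTEC-like cells it was at 142, 1044 and 1279.8 CPM in Sham, IRI24h-TDN and IRI24h-TD (log2 2.87, and 1.71 without correction between libraries), close to the ratio of S100a10 in the same cells. It was at 148 and 662 CPM in distal convoluted tubule-like, 584 and 1640.2 CPM in connecting tubule-like, 380.0 and 999 CPM in ascending limb-like and 387 and 839 CPM in mesangial-like cells of the mixtures. PEC-like cells, at 1006, 1651 and 1464 CPM, and podocyte-like cells, at 724, 988 and 936 CPM, differed by less than 2-fold.

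Of 14 annexins and other S100 partners, 6 of 12 measured were at least 2-fold higher and 2 lower in PTEC-like cells (16.7% and 15.7% of all genes), 4 and 0 of 13 in intercalated-like cells (11.1% and 6.73%), and 3 and 2 of 14 in podocyte-like cells (6.81% and 10.5%). In PEC-like cells 1 was higher and 2 lower of 12 (7.46% and 12%), in endothelial-like cells 1 and 2 of 11 (7.56% and 13.1%), in mesangial-like cells 1 and 0 of 11 (6.65% and 6.38%), and in fibroblast-like cells 0 and 1 of 10 (11.6% and 23.4%). Each of the other 4 classes had 2 higher, of 11 or 12 measured, and 0 or 1 lower. Anxa2, the partner of S100a10, was at 59.0, 692 and 905 CPM in PTEC-like cells of the 3 libraries, in the order given above (log2 3.55 between the mixtures), and its log2 ratio was 2.04 in connecting tubule-like and 0.51 in podocyte-like cells. Ahnak, a scaffold of the S100a10 and annexin A2 complex, had a log2 ratio of 3.05 in PTEC-like and 1.04 in podocyte-like cells. Cacybp, the S100a6 partner, had log2 ratios between -1.14 and 0.67 in the 11 classes and passed 2-fold only in endothelial-like cells, where it was lower (74.9 against 165 CPM in Sham). Fgf1, which S100a13 helps to export, was lower in podocyte-like (-2.12) and PTEC-like (-2.33) cells.

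Within single cells, thinned and on a log2 scale, S100a6 correlated with S100a11 at r = 0.42 and with S100a10 at r = 0.37 over 160 PTEC-like cells of IRI24h-TDN, and with S100a11 at r = 0.33 over 375 PEC-like cells. The values in other classes were often lower. With S100a11, r was 0.08 over 5234 podocyte-like, 0.16 over 445 distal convoluted tubule-like and -0.01 over 99 endothelial-like cells of IRI24h-TDN, and -0.05 over 871 PEC-like cells of Sham, whereas it was 0.51 over 883 monocytic-like cells of IRI24h-TDN. In 350 connecting tubule-like cells r was 0.35 with S100a11, 0.28 with S100a10, -0.42 with S100a1 and -0.33 with S100g. These cells share 1 library and 1 thinned depth, and the values are a description.

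S100a13, a copper- and calcium-binding protein that takes part in the release of FGF1 and interleukin-1 alpha, and S100a1, a regulator of calcium cycling in muscle, were the least changeable members. S100a13 was highest in endothelial-like cells, 423 CPM in Sham and 546 CPM in IRI24h-TDN, and reached 2-fold only in PTEC-like (27.1 and 67.7 CPM) and intercalated-like cells (64.0 and 137 CPM). S100a1 was highest in the distal nephron, at 1868 CPM in intercalated-like, 1630.5 CPM in connecting tubule-like, 1356 CPM in distal convoluted tubule-like and 994 CPM in ascending limb-like cells of Sham. In IRI24h-TDN the same classes were at 2957, 2572, 2084 and 1639 CPM, which left their order as it was. S100a1 was higher in 11 of 11 classes but by less than 2-fold in all of them (log2 0.14 to 0.997), and only 6.09% of genes had a narrower range over the classes.

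S100a4 (metastasin, also FSP1), which binds non-muscle myosin and marks fibroblasts and myeloid cells, was highest in lymphocyte-like, monocytic-like and endothelial-like cells of Sham. Monocytic-like cells held 80.1 CPM in Sham and 357 CPM in IRI24h-TDN (log2 2.15, 1.89 to 2.43), endothelial-like cells 77.3 and 325 CPM, fibroblast-like cells 14.1 and 81.4 CPM and mesangial-like cells 5.59 and 47.0 CPM. Lymphocyte-like cells, 37 in Sham and 12 in IRI24h-TDN, were at 359 and 159 CPM. In the epithelia it stayed low, at 0.327, 4.22 and 3.66 CPM in podocyte-like cells of the 3 libraries, at 0.579, 13.6 and 9.48 CPM in PEC-like cells and at 0.342, 13.3 and 8.94 CPM in PTEC-like cells. The PTEC-like log2 ratio of 5.28 (3.62 to 7.62) rests on 3 UMIs in Sham and 39 in IRI24h-TDN, that of PEC-like cells (4.55) on 5 and 60, and that of intercalated-like cells (2.12) on 1 and 10.

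S100a4 and S100a6 were high in the same monocytic-like cluster. Cluster 24 held 14 of 313 monocytic-like cells of Sham and 180 of 887 of IRI24h-TDN, with S100a4 at 806 and 1379 CPM and S100a6 at 1518 and 2815 CPM. In clusters 22, 23, 25 and 26 S100a4 was at 11.1 CPM or less in either mixture, and S100a6 was at 29.7, 33.6, 10.8 and 0 CPM in Sham against 57.6, 67.3, 87.6 and 104 CPM in IRI24h-TDN. Within cluster 24 the levels therefore differed less between the mixtures than over all monocytic-like cells, and cluster 24 also made up more of the class in IRI24h-TDN. Over single monocytic-like cells S100a6 correlated with S100a4 at r = 0.78 (883 cells of IRI24h-TDN) and 0.63 (282 cells of Sham), as a description.

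S100a8 and S100a9 (calgranulin A and B), which form calprotectin and are released by neutrophils as ligands of TLR4 and RAGE, were concentrated in neutrophil-like cells. S100a8 was at 23584 CPM in 20 Sham cells and 15661 CPM in 9 IRI24h-TDN cells, S100a9 was at 23458 and 13263 CPM, and IRI24h-TD held 1 such cell. In every other named class S100a8 was at 57.8 CPM or less in all 3 libraries. In 74 cells of IRI24h-TDN left without a class name it was at 160.5 CPM, and S100a9 was at 172 CPM.

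Outside neutrophil-like cells the S100a8 and S100a9 ratios rest on few cells. The highest log2 ratio of S100a8, 6.39 (3.84 to 11.7) in PEC-like cells, came from 1 UMI in Sham and 43 in 6 cells of IRI24h-TDN, with 65.1% of them in 1 cell. In intercalated-like cells it was 1 against 68 UMIs, 55.9% of them in 1 cell, and in endothelial-like cells it was 0 against 27 UMIs, 96.3% of them in 1 cell. Monocytic-like cells had 4 UMIs in Sham and 182 in 35 cells of IRI24h-TDN. For S100a9 the UMIs in Sham and IRI24h-TDN were 9 and 63 in PEC-like, 3 and 27 in connecting tubule-like, 4 and 90 in intercalated-like, 8 and 16 in endothelial-like and 1 and 60 in monocytic-like cells. In PTEC-like cells S100a9 was lower, 10 UMIs against 1. IRI24h-TD, the sorted library, held 1 UMI of S100a8 in 8837 podocyte-like cells and 0 in 543 PEC-like cells.

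Of the 7 genes for receptors and binding partners of secreted S100 proteins, Tlr4 had a log2 ratio of 4.04 in PTEC-like and 2.41 in connecting tubule-like cells, and Tlr2 of 3.50 in connecting tubule-like cells. Ager, which encodes RAGE, was measured in 5 of the 11 classes and lay between -1.82 and 0.23. In PTEC-like cells 2 of 6 receptor genes were at least 2-fold higher and 2 lower (16.7% and 15.7% of all genes), and in connecting tubule-like cells 2 and 0 of 5 (11.4% and 7.74%). In podocyte-like cells 1 of 7 was higher and 1 lower (6.81% and 10.5%), and in mesangial-like cells 0 of 6 were higher or lower (6.65% and 6.38%). In endothelial-like cells 0 of 4 were higher and 2 lower (7.56% and 13.1%). Fibroblast-like cells had 1 higher and 3 lower of 6 (11.6% and 23.4%). PEC-like cells had 1 and 0 of 7 (7.46% and 12%) and monocytic-like cells 2 and 0 of 6 (12.2% and 10.6%). Intercalated-like cells had 1 and 0 of 5 (11.1% and 6.73%). Ascending limb-like cells had 0 and 1 of 4 (10% and 11.4%), and distal convoluted tubule-like cells 1 and 1 of 4 (10.7% and 12.7%).

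S100g (calbindin-D9k), the vitamin D-dependent carrier that moves calcium through distal tubule cells, was at least 2-fold lower in IRI24h-TDN in 6 of the 11 classes and at least 2-fold higher in 3. Connecting tubule-like cells held it at 13999 CPM in Sham, 2274 CPM in IRI24h-TDN and 486 CPM in the 29 cells of IRI24h-TD, 6.15-fold lower in IRI24h-TDN than in Sham (log2 -2.62, -2.66 to -2.59). Distal convoluted tubule-like cells were at 3063 and 271 CPM in the mixtures, 11.3-fold lower (log2 -3.50, -3.59 to -3.41), and the share with a UMI was 85.7% in Sham and 32.8% in IRI24h-TDN. Intercalated-like cells went the other way, at 402 CPM in Sham and 1396 CPM in IRI24h-TDN (log2 1.795), with a UMI in 64.4% and 81.7% of cells.

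In ascending limb-like cells S100g was at 427 and 473 CPM in the mixtures, with 84.4% of the Sham UMIs in 1 cell. In podocyte-like cells, which are not known to make the protein, it was at 23.8, 4.22 and 0.416 CPM in Sham, IRI24h-TDN and IRI24h-TD, with a UMI in 16.6%, 3.55% and 0.396% of cells. The left-out barcodes held S100g at 491, 226 and 144 CPM, in the same order. In fibroblast-like cells 90.5% of the 42 UMIs of IRI24h-TDN sat in 1 cell, in mesangial-like cells 88.7% of the 204 UMIs of Sham did, and without the richest cells the log2 ratios of these classes changed sign, from 2.08 to -0.96 and from -1.99 to 0.10.

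Other calcium genes of the distal nephron were read beside S100g. Calb1, which encodes the larger carrier calbindin-D28k, was at 3291 CPM in Sham and 929 CPM in IRI24h-TDN in connecting tubule-like cells (log2 -1.82) and at 3720.2 and 629 CPM in distal convoluted tubule-like cells (log2 -2.56). Slc8a1, the sodium-calcium exchanger, had log2 ratios of -1.91 and -1.74 and Vdr, the vitamin D receptor, of -1.01 and -1.29 in these classes. Trpv5, the apical calcium channel, was at 236 and 216 CPM in connecting tubule-like cells of the mixtures. Of 8 genes measured from the list of 10, 0 were at least 2-fold higher and 3 lower in connecting tubule-like cells and 0 higher and 4 lower in distal convoluted tubule-like cells, beside shares of 7.74% and 12.7% of all genes lower in those classes. In intercalated-like cells Trpv6, the second apical channel, was at 3.85 and 41.5 CPM (log2 3.43).

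**Figure D5:**
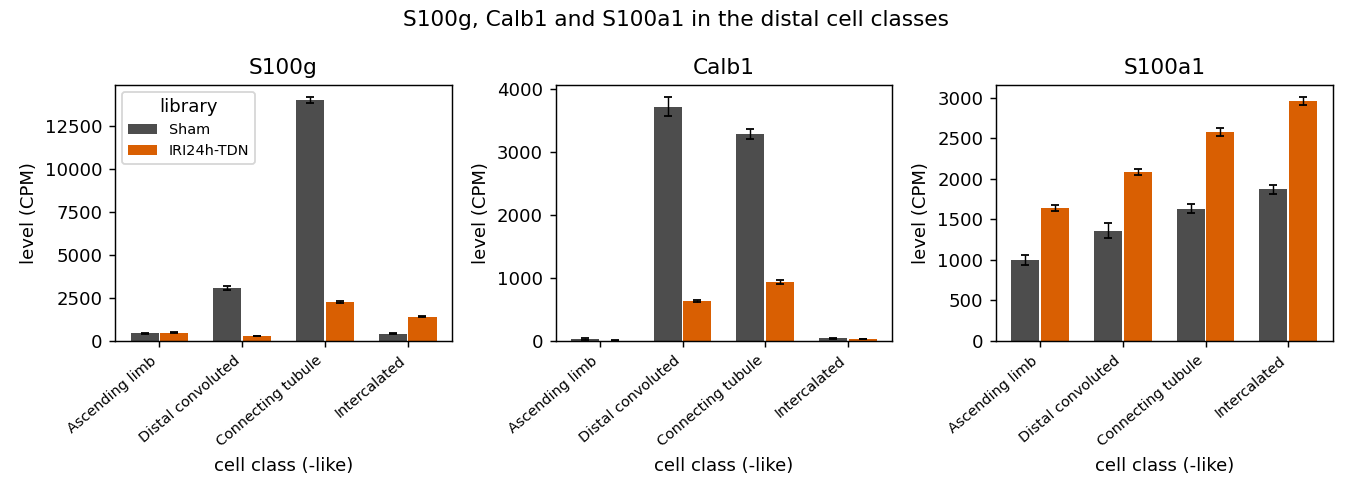
Level (CPM, with 95% counting intervals) of S100g, Calb1 and S100a1 in the 4 distal cell classes of Sham (grey) and IRI24h-TDN (orange). S100g and Calb1 are lower in IRI24h-TDN in distal convoluted tubule-like and connecting tubule-like cells, S100g is higher in intercalated-like cells, and S100a1 is higher in all 4.

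The sorted library was set against the mixture of the same injury in the classes with at least 30 cells in both. S100a6 was close in podocyte-like (log2 0.04), PEC-like (-0.09) and fibroblast-like cells (-0.08), and higher in IRI24h-TD in PTEC-like (0.33) and ascending limb-like cells (1.23). The fibroblast-like class is uncertain in IRI24h-TD. Its 50 cells held podocyte markers at 10350 CPM, against 2068 CPM in IRI24h-TDN, and 1 cell was left in it without correction between libraries. In the 33 ascending limb-like cells of IRI24h-TD, 62.1% of the S100a6 UMIs sat in 1 cell. S100a13 was 2.05-fold higher in PTEC-like cells of IRI24h-TD (139 against 67.7 CPM), whereas S100g was 10.1-fold lower in podocyte-like and 7.26-fold lower in PEC-like cells. Podocyte markers were at 5599 CPM in PTEC-like cells of IRI24h-TD and 1506 CPM in those of IRI24h-TDN. Podocyte-like cells held S100a13 at 224 and 207 CPM in these libraries, and the part of podocyte RNA in the S100a13 difference was not tested. In ascending limb-like cells S100g went the other way, at 2057 against 473 CPM (log2 2.12, 1.96 to 2.28), with 386 UMIs in 9 cells of IRI24h-TD and 46.4% of them in 1 cell. S100a10 (log2 -0.14 and -0.38) and S100a11 (-0.08 and -0.17) differed by less than 2-fold in podocyte-like and PEC-like cells.

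S100 genes outside the 9 were mostly rare. S100a16, a calcium-binding relative found in many epithelia, was at 39.6, 182 and 219 CPM in PTEC-like cells of the 3 libraries and was at least 2-fold higher in 3 of 11 classes (log2 0.18 to 2.20 over all 11). S100a14 was found mainly in connecting tubule-like cells, at 20.3 and 40.2 CPM in the mixtures. S100a3 had 1, 50 and 54 UMIs in the 3 libraries, and S100a2, S100a7a, S100b and S100z had at most 8 UMIs in any library.

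The genes whose levels were most like those of each member were taken by Pearson's r of log2(CPM + 10) over 23 groups, each a class in Sham or IRI24h-TDN, among 8532 genes. The groups share libraries, so r is a description. S100a6 was most like Tagln2 (0.91), Slc25a24 (0.87) and Ybx3 (0.87), S100a4 most like Fxyd5 (0.97), Rftn1 (0.95) and Srgn (0.94), and S100a1 most like Gstt3, Hoxb6 and C77080 (0.93 each). S100g was most like Tspan1 (0.93), Gm13652 (0.90) and Epb41l4b (0.90). S100a10 was most like Clcf1 (0.81), S100a11 most like Capns1 (0.81), S100a13 most like Nck1 (0.86), S100a8 most like Lyve1 (0.90) and S100a9 most like S100a8 (0.84). Neutrophil-like cells, where S100a8 and S100a9 were concentrated, are not among the 23 groups, so the likeness of these genes rests on levels of at most 57.8 CPM in few cells.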

How the data were processed

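The deposited files are 3 tables of UMI counts per gene and cell barcode, which the authors made from BD Rhapsody single-cell libraries with CASAVA 1.8, UMI-tools and Seurat on genome build mm10, per the labels. The aligner, annotation and cell filter are not given in the sources used here. The 9 S100 genes and the gene lists were chosen with earlier results of these data known. Barcodes with at least 200 genes and at most 50% mt- UMIs were kept. Counts were scaled to 10000 per cell, and 2000 variable genes without S100 genes gave 30 principal components, corrected between libraries by Harmony and clustered by Leiden (leidenalg 0.10.2, resolution 1.0, 15 neighbours). Clusters were called X-like from at least 3 markers, and 122 cells stayed unnamed. Doublets were kept, and leaving out the top 6% of doublet scores was an alternative.

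UMIs were summed per class and library and given as CPM with exact Poisson intervals, shares with exact Clopper-Pearson intervals, and ratios with conditional binomial intervals (Python 3.11.15, scipy 1.17.1). UMIs are molecules, but these intervals and floors cover counting error only. A ratio needed at least 30 cells in both libraries and 10 UMIs in 1, and a count of 0 was set to a floor of 3 counts. Calls are 2-fold with no test, since each group is 1 library. Thinning to 2400 UMIs left out 1368 shallower cells. The ratio calculation was tried on Poisson counts simulated without variation between cells or libraries, with changes in well-counted genes only. That simulation cannot speak for ratios that rest on few UMIs or on 1 cell. TMM scaling used edgeR 4.0.16, and median-of-ratios scaling was a further alternative. Genes named in the text are the 9 members, the other S100 genes, fixed lists of reference, partner, receptor, distal calcium and injury genes, the 3 genes most like each member and the 5 largest genes shifted alike in each direction. Values set out by cell, by cluster or without the richest cell were chosen after the data were seen. Upstream windows came from RefSeq and near copies from GENCODE transcripts of the same build.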

Additional observations from a re-analysis of the deposited data

Results flagged for a closer look

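S100g differed in direction between cell classes under the same contrast, IRI24h-TDN over Sham, and this difference was not tested, since each group is 1 library. Its log2 ratio was 1.795 in intercalated-like, 1.60 in endothelial-like and 2.08 in fibroblast-like cells, against -2.50 in podocyte-like, -1.80 in PEC-like, -3.50 in distal convoluted tubule-like, -2.62 in connecting tubule-like, -1.99 in mesangial-like and -2.20 in monocytic-like cells. Without the cell richest in S100g in each library, the ratio was 0.85 in endothelial-like, -0.96 in fibroblast-like, -0.87 in PEC-like and 0.10 in mesangial-like cells, while those of the other 5 classes were still at least 2-fold in the same direction. No group has enough libraries for a check of single libraries that stand apart.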

How the results depend on the processing

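A total of 269 alternatives were computed. The number of classes with S100a6 at least 2-fold higher, 10 of 11, ranged from 9 to 11 between the mixtures and was 4 of 5 for IRI24h-TD over Sham. The median S100a6 log2 ratio over classes, 3.54, was 2.97 with at least 500 genes and at most 20% mt- UMIs, 4.43 at resolution 2.0, 3.89 with every cell weighing the same and 4.44 for IRI24h-TD over Sham. Its excess over the other members, 2.43, was 1.94 with the stricter cell filter, 3.28 at resolution 2.0 and 3.95 for IRI24h-TD over Sham. The S100a6 level in PEC-like cells of IRI24h-TDN, 4724 CPM, was 4796 with the stricter filter, 4891 without likely doublets, 3529 without correction between libraries, 5553 at resolution 2.0, 4028 with every cell weighing the same, 3884 with TMM, 3937 with the median of ratios and 5151 without mt- genes and genes shifted alike. Genes shifted alike numbered 152, 101 with at least 50 UMIs and 59 at a log2 ratio of at least 2 in size. Thinning to 2400 UMIs took the shares of podocyte-like cells with S100a6 from 90.8% to 76.8% in IRI24h-TDN and from 3.41% to 1.47% in Sham, and the level in PTEC-like cells with Havcr1 from 3237 to 3420.3 CPM. The causes were not tested.

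Leaving out, per library, the cell richest in a gene was chosen after seeing the data. Of 50 ratios of at least 2-fold, 42 were still so, including 10 of 10 of S100a6, and the sign changed for S100a9 in PTEC-like (0.0028, where no UMI was left in IRI24h-TDN and the sign comes from the floor of 3 counts alone), S100g in mesangial-like (0.10) and S100g in fibroblast-like cells (-0.96). No paired analysis was possible because each group holds 1 library, and no replicate could be left out. Low counts limit S100a4, S100a8 and S100a9 outside leukocytes.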
